A study of Mus musculus with 12 samples.

Results

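CD8 T cells of a library that carry the same T cell receptor (TCR) are taken here to descend from a single parent cell and are counted as a clone. The number of cells caught per clone is read as a record of its expansion. Descent itself was not tested, and some receptors described below recurred with identical sequences in separate libraries. The cells described here were CD8 T cells of the pancreatic islets whose clone held 10 or more cells in its library (large clones), set against cells of expanded clones of 2 to 4 cells (small clones). They came from pre-diabetic female NOD mice of 12 weeks, a strain that develops autoimmune diabetes spontaneously, and all libraries share this strain, sex, age and state. Live TCR-positive islet cells had been sorted and profiled by CITE-seq, a droplet method that reads the mRNA and tagged antibodies of each cell together, in 4 biological replicates with an mRNA and a TCR library each. Whether a replicate is 1 mouse or a pool is not stated in the labels, so p-values measure the spread between these libraries.

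A barcode counted as a CD8 cell with a CD4 antibody count under 20, at least 2 UMIs (unique molecular identifiers, each a captured molecule) of Cd8a and Cd8b1, at least 500 RNA UMIs and at most 8% mitochondrial UMIs. Of 27423 barcodes, 4632 passed, and 2910 of these held exactly 1 productive TRB (β) and 1 or 2 productive TRA (α) chains. A clonotype was the set of their CDR3 nucleotide sequences, CDR3 being the loop that spans the joined segments and contacts the antigen peptide. The large class held 756 cells in 25 clones, and the small class 320 cells in 137 clones. By replicate 1 to 4, large clones numbered 3, 7, 7 and 8 with 76, 110, 323 and 247 cells, and small clones 44, 29, 39 and 25 with 101, 70, 92 and 57 cells. A further 143 cells lay in 21 clones of 5 to 9 cells, and 1691 cells had a receptor seen in no other cell. Clone size alone chose the members, so size itself is no result.

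In chronic infection and in tumours, CD8 cells under lasting antigen exposure take up a state called exhaustion, with inhibitory receptors such as PD-1 (Pdcd1) and TIM-3 (Havcr2) and the transcription factor Tox. A less differentiated, stem-like fraction that keeps the transcription factor Tcf7 and the receptor Slamf6 is known there to renew the exhausted cells. Naive cells carry the IL-7 receptor (Il7r), but Il7r is not read here as theirs alone. It was also a leading gene of cluster 3, described below. There it was the only 1 of 12 naive and recirculation markers at least 2 times its level in the other clusters. In NOD islets, CD8 cells that recognise beta cell peptides are a known part of the infiltrate.

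Depth differed between the classes. The summed RNA UMIs ran from 1112405 to 4486973 per library in large clones and from 481485 to 848233 in small clones, and the median cell held 8379 UMIs in large clones, against 5364 in small clones. Markers of other cell types differed between the classes, in both directions. The 4 CD4 lineage markers summed to 1.31 to 3.12 CPM (UMIs per 1000000 UMIs of the sum) in large clones and 0 to 18.5 CPM in small clones. Large clones were the higher class for them in 2 of 4 libraries. The 6 B cell markers, none of them at 0, summed to 76.8 to 386 CPM in large clones and to 330 to 1513 CPM in small clones and were higher in small clones in 3 of 4 libraries. The 7 myeloid markers, again none at 0, summed to 86.3 to 139 CPM in large clones and 126 to 544 CPM in small clones and were higher in small clones in every library. The most read of them was Ctss, with 675 UMIs in large and 334 in small clones. C1qa and C1qb were at 0 in small clones of replicates 1 and 2. They had 68 and 59 UMIs there in replicate 3 and 107 and 66 in replicate 4. The 6 stroma and endothelium markers, with Col3a1 and Dcn at 0, summed to 6.23 to 17.7 CPM in large clones and 33.0 to 60.1 CPM in small clones, without overlap, and their 1 tested gene, Pecam1, was lower in large clones (log2 fold change −1.99 ± 0.25). Pecam1 held 89 of these UMIs in large clones and 111 in small clones, against at most 7 for any other of these markers. The sum is thus in effect the level of 1 gene. Of the NK cell list, Ncr1 and Klrb1c were at 0. Its 5 genes summed to 226.5 to 394 CPM in large clones and 108.5 to 325 CPM in small clones. Most of these UMIs were of Eomes (3270 in large and 430 in small clones), which is also on the exhaustion list. The 5 gamma delta T cell markers summed to 97.4 to 176 CPM in large clones and 50.7 to 131 CPM in small clones. Both lists were higher in large clones in every library. The part of these markers in the results was not tested. Counts without cells that carry B cell, myeloid, islet endocrine, acinar or duct markers are given below. Between 36 and 102 barcodes were shared by any pair of the mRNA libraries, while 3402 to 5175 TCR barcodes per library were found in their own mRNA library.

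The receptors are shown first, because they tell which large clones have identical or similar sequences. The TRA locus lies on chromosome 14 and the TRB locus on chromosome 6 of the mouse assembly GRCm38.p6, by the constant genes Trac and Trbc1 of its RefSeq annotation. The sequences are CDR3 nucleotides of the authors' contig tables, 5′ to 3′, and capitals mark the bases at which the 2 members of a pair differ. In replicate 3, the clones of 143 and 86 cells and 1 of the clones of 15 cells carried the same TRBV16-TRBJ1-4 sequence. The clone of 143 had 2 TRA chains, TRAV5-4-TRAJ50 and TRAV6N-7-TRAJ53. The clone of 86 had the second of these alone and the clone of 15 the first alone, with identical bases. Counted with 1 further cell, 245 cells of 4 clonotypes shared this TRB, and whether they are a single clone with an α chain unread in part of its cells was not tested. In replicate 4, the clone of 23 cells used the same segments and differed by 1 base in TRA and by 2 bases in TRB, none of which changed a residue.
TRA, replicate 3: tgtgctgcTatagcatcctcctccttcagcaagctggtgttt
TRA, replicate 4: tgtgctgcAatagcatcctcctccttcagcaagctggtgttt
TRB, replicate 3: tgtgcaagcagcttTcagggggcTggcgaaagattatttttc
TRB, replicate 4: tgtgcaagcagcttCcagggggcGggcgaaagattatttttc

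A second set recurred base for base in both libraries. The clones of 20 cells and of 15 cells in replicate 3 and those of 20 and 19 cells in replicate 4 used TRAV16N-TRAJ42 with TRBV13-3-TRBJ2-4. Their TRB was identical, and their TRA came in 2 versions that differed by 1 base and no residue. The first version was that of the 20-cell clones of both libraries, and the second that of the 15-cell and 19-cell clones, and no cell barcode of these clones was shared between the libraries. TRAV16 with TRAJ42 is known in NOD mice from CD8 cells that recognise a peptide of the islet glucose-6-phosphatase-related protein; no specificity was measured here.
TRA, first version: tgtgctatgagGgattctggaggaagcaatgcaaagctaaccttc
TRA, second version: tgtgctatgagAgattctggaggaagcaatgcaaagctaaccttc
TRB, both versions: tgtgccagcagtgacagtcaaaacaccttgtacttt

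The largest clone of replicate 1, with 36 cells, and that of replicate 4, with 66 cells, shared an identical TRAV16N-TRAJ37 chain. Their TRBV3-TRBJ1-2 chains differed by 5 bases and 1 residue.
TRB, replicate 1: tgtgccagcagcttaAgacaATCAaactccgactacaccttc
TRB, replicate 4: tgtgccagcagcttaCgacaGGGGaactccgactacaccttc

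Over the series, a TRAV16 family chain was carried by 12 of 25 large clones, or 48.0%, against 18 of 137 small clones, or 13.1%. The share was higher among large clones in each library, with 33.3% against 13.6% in replicate 1, 28.6% against 13.8% in replicate 2, 42.9% against 17.9% in replicate 3 and 75% against 4.00% in replicate 4. TRAV16 paired with TRAJ42 in 6 large clones, all in replicates 3 and 4, against 2 small clones, both in replicate 1. Near-identical copies of the V segments can be confused, so the family is counted and not the copy. These shares were not tested, and clones with identical or similar chains are counted apart.

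To ask which genes go with clone size among expanded cells, UMIs were summed per library over the cells of each class and compared within libraries in edgeR. Class levels of single genes are CPM scaled by TMM, which corrects for the composition of a sum. Of 8180 genes tested, 643 were higher in large clones, which is 7.86%, and 675 were lower, which is 8.25%, at an adjusted p (Benjamini-Hochberg over the tested genes) under 0.05, or 16.1% in either direction. The sums of the 4 libraries did not overlap for 7.22% of genes with large clones above and for 8.06% with large clones below. Without replicate 2, 614 genes were called, and without replicate 3, the library with the largest clones, 432. Naive and recirculation genes were lower in large clones. Of the 12 such genes listed, 12 were tested and 8 were lower, with a median log2 fold change of −1.499, against −0.0061 over all tested genes.

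Igfbp4, a gene of naive T cells, was read in 2 UMIs over all large clones, both in replicate 4, against 70 UMIs in small clones. Il7r averaged 22.7 ± 12.97 CPM in large clones and 117 ± 50.5 CPM in small clones (SD, n = 4 each; log2 fold change −2.50 ± 0.28, adjusted p = 0.00069), without overlap between the classes. Foxp1, a transcription factor of quiescent naive cells, had 49.2, 83.1, 48.2 and 45.1 CPM in large clones, against 215, 167, 162 and 114 CPM in small clones (−1.56 ± 0.17). Klf2, which drives the egress programme, averaged 209 ± 40.5 CPM in large clones and 417 ± 63.2 CPM in small clones (−0.996 ± 0.14), and S1pr1, the egress receptor it controls, 34.1 ± 9.17 and 89.5 ± 37.1 CPM (−1.29 ± 0.29). S1pr1 was not called without replicate 2 (−1.17) or without the clones that carry the TRB of their library's largest clone (−0.89), and Il7r was not called with at most 10 cells of each clone (−2.001).

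Other genes with a large drop have roles that are less settled in T cells. Dapl1 averaged 13.2 ± 12.9 CPM in large clones and 101 ± 84.7 CPM in small clones (−3.12 ± 0.23), and it was lower in large clones in every library, from 30.1 against 222 CPM in replicate 1 to 1.62 against 29.5 CPM in replicate 4. Kbtbd11 had 14.6, 26.1, 10.04 and 10.4 CPM in large clones, against 78.0, 91.3, 89.4 and 69.5 CPM in small clones. That drop (−2.57 ± 0.22, adjusted p = 1.9e-06) was among the most even across libraries of those named. The sialyltransferase gene St6gal1 (−3.01), Als2cl (−2.89), Plac8 (−2.49), the Notch pathway ubiquitin ligase gene Dtx1 (−2.32) and the unannotated Gm2682 (−2.28) also fell. The Plac8 call was lost without replicate 2 (−2.56) and without replicate 3 (−2.25).

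**Figure D1:**
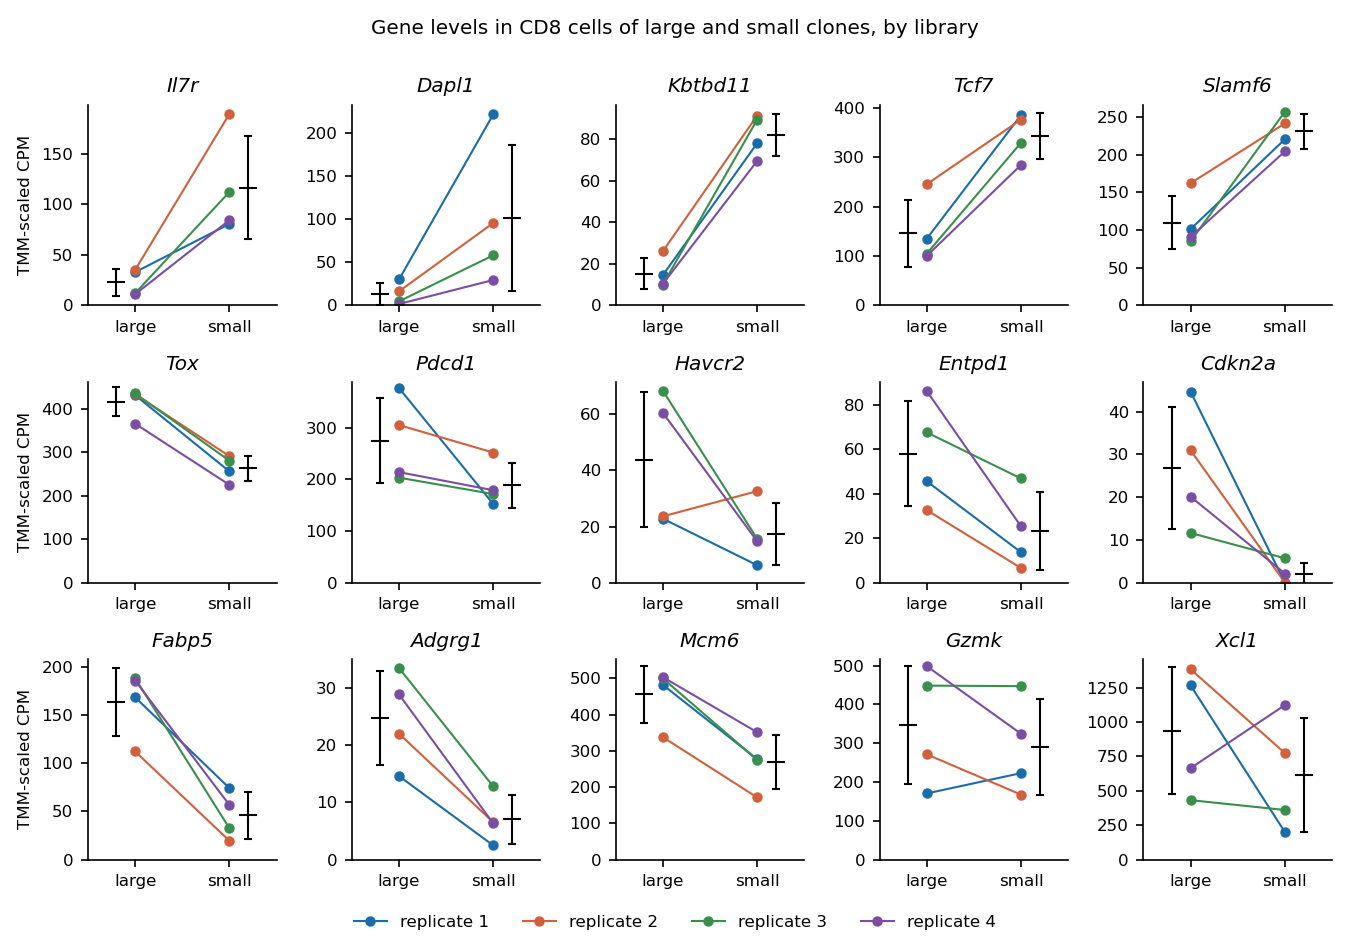
Levels of 15 genes in TMM-scaled CPM (vertical axes from 0) in large and small clones, a line per library, with black bars for the mean and SD over 4 libraries (bars end at 0). In every library the line runs upward to the small clones for Il7r, Dapl1, Kbtbd11, Tcf7 and Slamf6 and downward for Tox, Entpd1, Cdkn2a, Fabp5, Adgrg1 and Mcm6, while the lines cross for Havcr2, Gzmk and Xcl1.

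The stem-like list was split. Of 12 genes tested, 6 were lower and 0 higher, with a median of −0.54. Tcf7 had 135, 245, 105 and 100 CPM in large clones, against 385, 376, 329 and 284 CPM in small clones (log2 fold change −1.33 ± 0.16, adjusted p = 0.00016). Slamf6 had 101, 162, 84.99 and 90.8 CPM in large clones, against 220, 241, 257 and 204 CPM in small clones (−1.13 ± 0.15). For both genes every large sum lay below every small sum, and replicate 2 had the highest large sum. The Slamf6 call was lost on cells thinned to 1000 UMIs (−0.72) and without cells that carry markers of other cell types (−0.70). Il7r is also on this list. Id3, a transcription factor linked to the stem-like state, averaged 48.1 ± 22.1 and 91.9 ± 26.7 CPM (−1.02 ± 0.21, adjusted p = 0.0061), with a lost call without replicate 3 (−0.85). Xcl1, the chemokine that stem-like cells make, did not pass (0.69 ± 0.71, adjusted p = 0.60): large clones had 1266, 1383, 432 and 664 CPM, against 201, 774, 360 and 1123 CPM in small clones, so replicate 4 went the other way.

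Of the exhaustion list, 16 genes were tested, 5 were higher and 0 lower, with a median of 0.63. Tox had 432, 434, 436 and 366 CPM in large clones, against 256, 291, 281 and 225 CPM in small clones, with no overlap (0.67 ± 0.11, adjusted p = 0.00067). Entpd1, which encodes the surface ATP-degrading enzyme CD39, averaged 58.0 ± 23.7 CPM in large clones and 23.1 ± 17.6 CPM in small clones (1.29 ± 0.25), higher in every library. Eomes, a T-box factor of effector and exhausted cells, averaged 306 ± 62.1 and 177 ± 57.4 CPM (0.81 ± 0.13), and Prdm1, which encodes the repressor BLIMP1, 64.4 ± 20.1 and 28.1 ± 19.3 CPM (1.218 ± 0.24), which was not called without cells that carry markers of other cell types (0.77). Havcr2 had 22.8, 23.6, 68.5 and 60.6 CPM in large clones, against 6.19, 32.6, 15.6 and 14.7 CPM in small clones. It was lower in replicate 2, and its call (1.43 ± 0.40, adjusted p = 0.042) was lost without replicate 1 (1.36), 3 (1.06) or 4 (1.23). Pdcd1 averaged 275 ± 82.1 CPM in large clones and 189 ± 43.8 CPM in small clones and did not pass (0.53 ± 0.17, adjusted p = 0.057).

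Part of these calls rests on the largest clones. When every clone with the TRB of its library's largest clone was left out, Tox (0.33) and Eomes (0.54) kept their direction and were no longer called, while 479 genes were still higher and 498 lower.

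Cytotoxic genes showed no shared direction, with 2 of 14 higher, 1 lower and a median of −0.11. Fasl, the ligand of the death receptor Fas, averaged 51.3 ± 12.2 CPM in large clones and 29.8 ± 15.2 CPM in small clones (0.83 ± 0.20), without a call when replicate 3 was left out (0.69). Nkg7, a granule protein gene, was higher by a little (0.32 ± 0.07), and Ctsw, a cathepsin gene of cytotoxic cells, was lower (−0.78 ± 0.13). The Nkg7 call was lost in DESeq2 (0.33), without the largest clone of each library (0.24) and with at most 10 cells of each clone (0.23), and the Ctsw call on thinned cells (−0.38) and without cells that carry markers of other cell types (−0.48). DESeq2 called 0 of the cytotoxic genes higher and 1 lower. The granzyme genes Gzma (−0.62 ± 0.90, adjusted p = 0.71) and Gzmk (0.22 ± 0.16, adjusted p = 0.40) did not pass. Gzma had 45.6, 23.6, 125 and 66.4 CPM in large clones, against 308, 4.35, 66.7 and 105 CPM in small clones, a spread wider than any shift. None of 5 tested chemokine genes passed in edgeR, while 1 of them, Ccl3, was higher at an unadjusted p under 0.05 and was called in DESeq2. Ccl3, an inflammatory chemokine gene, had 159, 211, 195 and 333 CPM in large clones, against 9.91, 58.7, 135 and 103 CPM in small clones (1.65 ± 0.54, adjusted p = 0.15). Ccl5 was nearly level, at 5806 ± 1804 CPM in large clones and 5529 ± 1732 CPM in small clones.

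Of 5 tested killer lectin-like receptor genes, which encode receptors shared with NK cells, 3 were higher. Klre1 averaged 142 ± 59.6 CPM in large clones and 71.4 ± 54.6 CPM in small clones (1.10 ± 0.22), and Klrc1 262 ± 79.9 and 164 ± 70.0 CPM (0.70 ± 0.13). Without the clones that carry the TRB of their library's largest clone, neither was called (Klre1 0.45, Klrc1 0.43). Of the TCR signal list, 3 of 14 were higher and 1 lower. Dusp4, a phosphatase gene that dampens MAP kinase signals, averaged 157 ± 36.3 CPM in large clones and 64.1 ± 31.4 CPM in small clones (1.34 ± 0.28), and its call was lost without replicate 1 (1.22), 2 (1.21) or 3 (1.17).

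Interferon response genes were called mostly lower in large clones: 10 of 13 fell and 0 rose, with a median of −0.79. Ifi27l2a had 633, 561, 403 and 501 CPM in large clones, against 826, 855, 846 and 760 CPM in small clones (−0.67 ± 0.10), and Ifi203 fell by 0.79 on the log2 scale. Both calls were lost on cells thinned to 1000 UMIs (Ifi27l2a −0.14, Ifi203 −0.39) and without cycling cells (−0.11 and −0.18), and that of Ifi27l2a also without cells that carry markers of other cell types (−0.35). Among migration genes, Cxcr3, the receptor for interferon-induced chemokines, averaged 103 ± 28.3 CPM in large clones and 182 ± 39.3 CPM in small clones (−0.85 ± 0.15), and Cxcr4 averaged 72.5 ± 27.0 and 33.5 ± 9.91 CPM (1.14 ± 0.20). Il2rg, the shared cytokine receptor chain, averaged 354 ± 52.0 CPM in large clones and 592 ± 75.2 CPM in small clones (−0.75 ± 0.11).

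Proliferation genes were higher almost throughout, with 21 of 24 called higher and 0 lower and a median of 0.79. Mcm6, a subunit of the replication helicase, had 482, 338, 500 and 504 CPM in large clones, against 277, 172, 275 and 352 CPM in small clones (0.78 ± 0.11). Cdk1, the mitotic kinase, averaged 132 ± 5.13 CPM in large clones and 65.98 ± 23.2 CPM in small clones (1.03 ± 0.17), without overlap. Tk1, a nucleotide salvage kinase, averaged 139 ± 22.5 and 73.7 ± 29.7 CPM (0.96 ± 0.16), and Mki67 719 ± 94.2 and 474 ± 144 CPM (0.64 ± 0.12). Of 47 tested genes with a Hist symbol, 20 were higher and 0 lower.

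The gene with the largest rise, Cdkn2a, encodes inhibitors of the cell cycle. It had 44.7, 31.0, 11.6 and 20.1 CPM in large clones, or 201 UMIs in all, against 0, 0, 5.68 and 2.11 CPM in small clones, or 5 UMIs in all. The classes did not overlap (3.62 ± 0.70, adjusted p = 0.0085), and the 2 libraries at 0 make the fitted fold depend on the prior count. Asns, which makes asparagine, had 18.2, 22.0, 23.4 and 21.4 CPM in large clones, against 2.48, 0, 1.42 and 12.6 CPM in small clones (2.47 ± 0.50), without a call when replicate 3 was left out (2.07). Fabp5, a fatty acid carrier gene, had 169, 112, 188 and 186 CPM in large clones, against 74.3, 19.6, 32.6 and 56.9 CPM in small clones (1.86 ± 0.21), without a call when cycling cells were left out (0.72). Adgrg1, an adhesion receptor gene of cytotoxic lymphocytes, averaged 24.7 ± 8.24 and 7.02 ± 4.26 CPM (1.80 ± 0.31). The nucleotide hydrolase gene Dnph1 (2.06), the DNA repair nuclease genes Gen1 (1.93) and Exo1 (1.78), the mitotic kinase gene Nek6 (1.56), the phosphatase subunit gene Ppp2r2c (1.48) and Gm42743 (1.497) were the rest of the 10 with the largest rise.

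Cycling differed with clone size at the level of cells too. A cell counted as cycling when at least 0.3% of its UMIs came from the proliferation list. Of cells in large clones, 44.7%, 23.6%, 44.3% and 55.9% were cycling in replicates 1 to 4, against 18.8%, 8.57%, 16.3% and 28.1% of cells in small clones. The share was higher in large clones in 4 of 4 libraries, by 24.2 ± 6.15 percentage points (mean ± SD, n = 4), with p = 0.125 in an exact two-sided sign-flip permutation test, the smallest p that 4 libraries allow. After thinning each cell to 1000 UMIs the difference was 25.3 points, at 3 or more proliferation UMIs. Of 756 cells in large clones 73 lay between 0.2% and 0.4%, and of 320 cells in small clones 25. Over the classes of 1, 2 to 4, 5 to 9 and 10 or more cells, the mean share was 4.56 ± 1.03%, 17.9 ± 8.04%, 34.7 ± 4.99% and 42.1 ± 13.4% (SD, n = 4), the last 2 within a SD of each other.

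The antibodies gave the surface level of CD11a. The median count of CD11a, an integrin chain that goes up on T cells after activation, was 456, 339.5, 371 and 400 in large clones, against 227, 263.5, 338.5 and 293 in small clones. On the scale of mean log2(count + 1) the difference was 0.74 ± 0.34 (n = 4, p = 0.125 in the exact permutation test), positive in every library. Itgal, the gene of CD11a, named for this comparison after its values were seen, went the other way, at 192, 242, 224 and 222 CPM in large clones, against 262, 322, 308 and 303 CPM in small clones (−0.44 ± 0.11, adjusted p = 0.012).

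**Figure D2:**
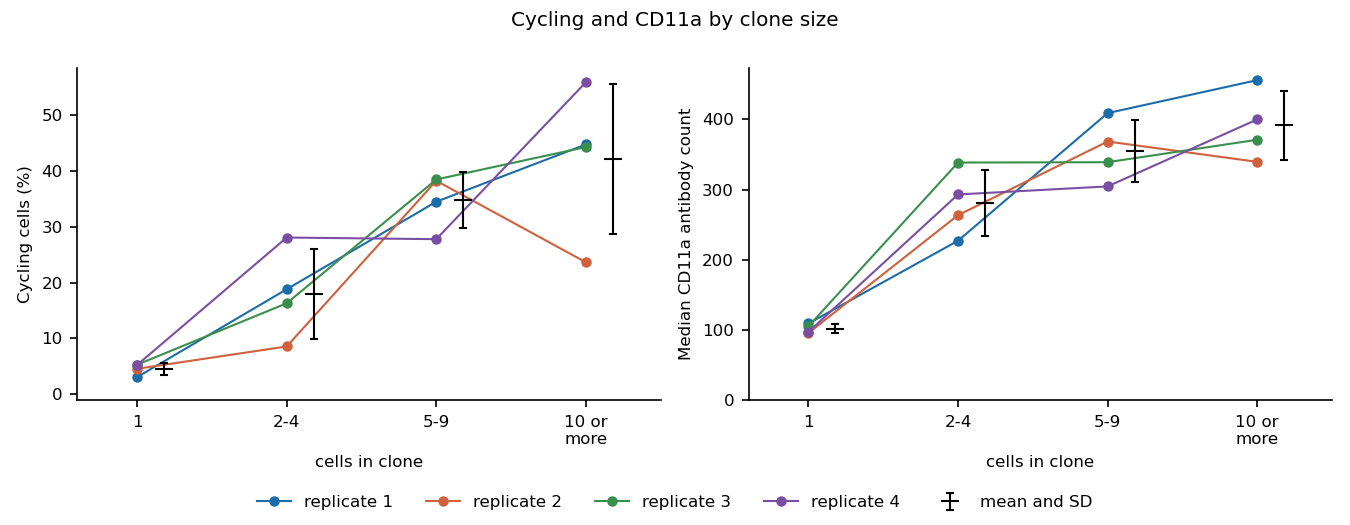
Share of cycling cells (left) and median CD11a antibody count (right) by the number of cells in the clone, a line per library, with black bars for the mean and SD over 4 libraries. Cells with a unique receptor are lowest for both in every library, and replicate 2 alone has fewer cycling cells in clones of 10 or more (23.6%) than in clones of 5 to 9 (38.2%).

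Gene levels followed the size classes as well, on CPM scaled by TMM over the 16 sums of the 4 classes. From cells with a unique receptor through clones of 2 to 4, of 5 to 9 and of 10 or more cells, Tox averaged 112 ± 14.3, 248 ± 25.6, 327 ± 76.3 and 420 ± 31.8 CPM (SD, n = 4). Kbtbd11 averaged 143 ± 6.46, 77.3 ± 8.95, 38.2 ± 4.35 and 15.2 ± 7.07 CPM in the same order, with no neighbouring means within a SD of each other. Tcf7 averaged 356 ± 33.9, 324 ± 43.5, 242 ± 117 and 146 ± 63.8 CPM, and its first 2 classes lay within a SD. Cdkn2a averaged 0.915 ± 0.666, 1.83 ± 2.51, 4.30 ± 3.80 and 26.8 ± 13.9 CPM, so that the class of 5 to 9 cells was still near the level of small clones. These levels are a description, since the first and last classes of expanded cells are those compared above.

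Because cycling cells hold many UMIs (a median of 17300 and 18742 in the 2 cycling-like clusters described below), the comparison was repeated on cells under 0.3% proliferation UMIs, called non-cycling here. This choice was made after the data were seen. It did not remove every difference in proliferation genes: 2 of 12 tested were higher in large clones, Mcm6 (0.99 ± 0.14, adjusted p = 5.6e-05) and Top2a, a DNA topoisomerase gene (1.52 ± 0.31, adjusted p = 0.0034), both without overlap. Both are on the list whose summed UMIs chose these cells, so their adjusted p is shaped by that choice and is no independent test. The choice left 42, 84, 180 and 109 cells of large clones, against 82, 64, 77 and 41 cells of small clones. Of 6221 genes tested, 105 were higher in large clones, or 1.69%, and 149 lower, or 2.4%, which makes 4.08% in all. The classes did not overlap for 3.44% of genes with large clones above and for 3.78% with large clones below. Of the calls, 50 of the 105 and 106 of the 149 were also made in the same direction over all cells. Without replicate 3, 115 genes were called.

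In the non-cycling cells 12 of 16 tested exhaustion genes were higher and 0 lower, with a median of 1.11, against 0.0014 over all tested genes. DESeq2 called 6 of them higher here and 6 over all cells. Pdcd1 had 553, 443, 368 and 351 CPM in large clones, against 132, 245, 151 and 183 CPM in small clones (log2 fold change 1.29 ± 0.16, adjusted p = 0.00014). Tox had 604, 632, 829 and 603 CPM in large clones, against 340, 342, 335 and 281 CPM in small clones (1.04 ± 0.11). Havcr2 had 47.9, 30.8, 63.8 and 121 CPM in large clones, against 0, 16.7, 13.3 and 18.3 CPM in small clones (2.33 ± 0.40). In each of these the classes did not overlap. Tigit, an inhibitory receptor gene, averaged 401 ± 46.5 CPM in large clones and 179 ± 46.5 CPM in small clones (1.18 ± 0.13), and Entpd1 averaged 85.9 ± 40.5 and 24.5 ± 15.8 CPM (1.72 ± 0.26). Whether these differences are larger than those over all cells was not tested.

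Genes of recent receptor signal were 5 of 14 higher and 0 lower, while DESeq2 called 1 of them higher and 0 lower. Nr4a2 and Nr4a3 encode nuclear receptors that TCR signals induce. Nr4a2 had 652, 496, 381 and 571 CPM in large clones, against 122, 106, 144 and 238 CPM in small clones (1.82 ± 0.17), and Nr4a3 averaged 71.7 ± 27.2 and 24.7 ± 8.05 CPM (1.58 ± 0.28). Egr2, an early response factor gene, had 103, 88.2, 94.3 and 88.6 CPM in large clones, against 17.4, 33.4, 24.4 and 42.8 CPM in small clones (1.76 ± 0.25). Dusp4 averaged 171 ± 35.6 and 53.3 ± 35.7 CPM (1.86 ± 0.23). Both nuclear receptor genes and both of the others were higher in every library.

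Ccl3 averaged 411 ± 283 CPM in large clones and 68.2 ± 49.5 CPM in small clones (2.43 ± 0.28). Klre1 averaged 249 ± 86.6 and 80.5 ± 48.3 CPM (1.71 ± 0.17). Ikzf2, which encodes the factor Helios, was higher in every library, with 324, 314, 606 and 166 CPM in large clones, against 171, 94.6, 175 and 141 CPM in small clones (1.31 ± 0.21). Jdp2, an AP-1 repressor gene (1.85), Srgap3 (1.80), Ppp2r2c (2.07), Cd101, a marker of terminally exhausted cells (1.85), Fasl (1.48) and Prdm1 (1.55) rose as well, and Cd101 was not called without replicate 1 (1.42) or 2 (1.69).

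The stem-like genes did not fall as a set in the non-cycling cells, where 2 of 12 were higher, 2 lower and the median 0.08. DESeq2 called 0 of them higher and 1 lower. Tcf7 was still lower, at 266 ± 75.8 CPM in large clones and 428 ± 18.4 CPM in small clones (−0.70 ± 0.13, adjusted p = 0.0014). Slamf6 (−0.53 ± 0.15, adjusted p = 0.056) and Id3 (0.03 ± 0.23, adjusted p = 0.99) did not pass. Of the naive and recirculation list 6 of 11 were lower, among them Dapl1 (−2.13 ± 0.42), S1pr1 (−1.56 ± 0.26) and Klf2 (−0.95 ± 0.19), and Il7r did not pass (−1.81 ± 0.50, adjusted p = 0.23). On this list DESeq2 called 1 gene lower and 0 higher. Klf2 was not called without replicate 4 (−0.83). The other genes with the largest drop were St6gal1 (−2.29), Pag1 (−1.96), an adaptor gene that restrains proximal TCR signalling, Dtx1 (−1.91), Kbtbd11 (−1.78), Slco3a1 (−1.65), the IL-4 receptor gene Il4ra (−1.64), the interferon-induced Epsti1 (−1.63) and Gm2682 (−1.59). Dtx1 was not called without replicate 2 (−1.62). Interferon genes were 2 of 12 lower and 0 higher, with a median of −0.43, while DESeq2 called 0 lower. Of 88 tested ribosomal protein genes 56 were lower and 0 higher, with a median of −0.26, against 30 lower and 2 higher of 89 over all cells.

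**Figure D3:**
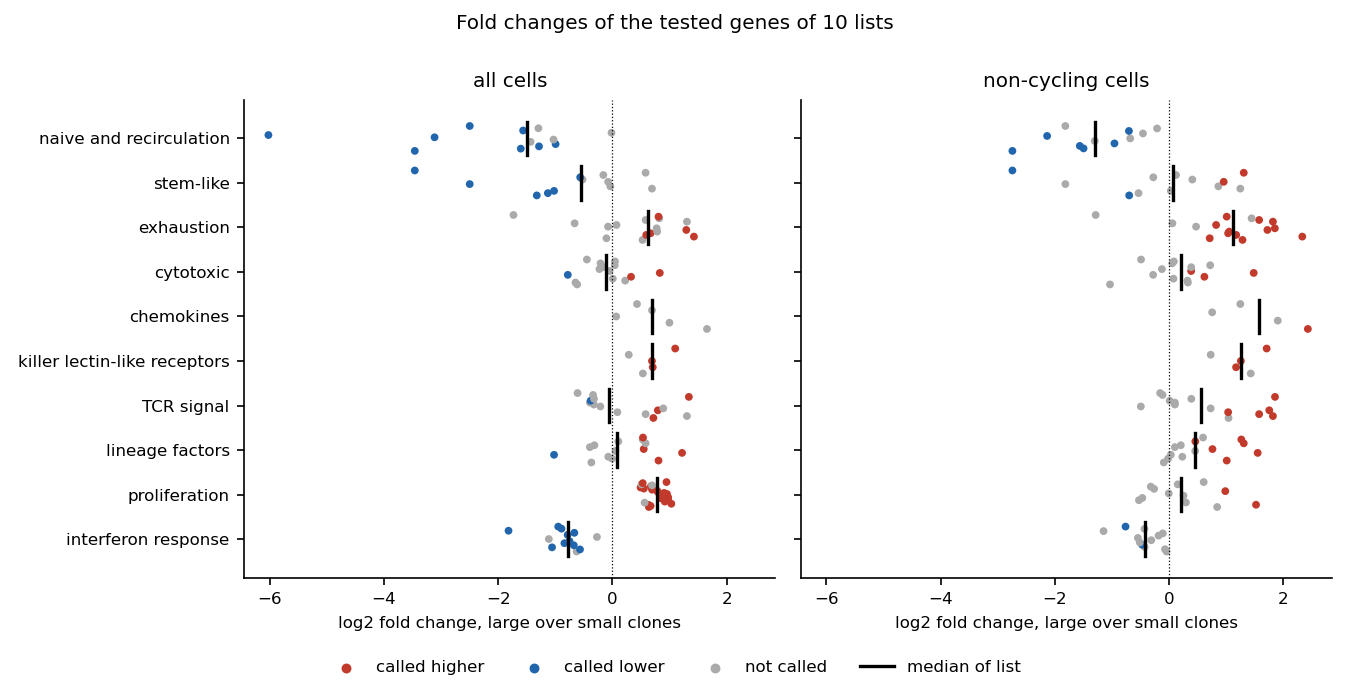
Log2 fold change of large over small clones for each tested gene of 10 lists, over all cells (left) and over non-cycling cells (right), with a point per gene, coloured when called at an adjusted p under 0.05, and a black line at the median of the list. The exhaustion median is 0.63 on the left and 1.11 on the right. The proliferation and interferon calls seen on the left are mostly gone on the right, where the proliferation list itself chose the cells. The point farthest left is Igfbp4, whose fitted value rests on 2 UMIs in large clones.

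Single large clones were then asked for their state. The CD8 cells were clustered into 15 groups on genes other than receptor segments, and a cluster was named only from listed markers. Cluster 6 was exhausted-like, with 14 of the listed exhaustion markers over 2 times their level in the other clusters and Ccl4, Ccl3, Entpd1, Havcr2 and Lag3 among its leading genes. Clusters 10 and 12 were cycling-like. Cluster 7 (led by Susd2 and Cxcr5), cluster 3 (led by Gzmm, Hopx, Itga1, Ccr2 and Il7r), cluster 8 (led by Elmod1, Nrn1, Izumo1r and Nrp1) and cluster 13 (led by Xcl1, Ccl1, Penk and Egr2) met no marker rule and are called by number. Exhaustion markers were not particular to cluster 6. In cluster 7, 9 of 17 were at least 2 times their level in the other clusters, among them Pdcd1, Lag3, Tigit and Tox. So were 6 of 12 stem-like markers, among them Tcf7 and Slamf6. Of the 756 cells in large clones, 161 lay in cluster 6, 145 in cluster 7, 127 in cluster 10, 195 in cluster 12, 47 in cluster 3, 31 in cluster 8 and 33 in cluster 13. Of the 320 cells in small clones these held 18, 31, 21, 22, 95, 53 and 8. Clusters 2, 4 and 5 had 9, 10 and 10 of 12 naive and recirculation markers at least 2 times over the other clusters. Cluster 2 also had 17 of 18 interferon response markers at that level. Clusters 2, 4 and 5 held 11, 13 and 30 cells of small clones, against 2, 0 and 0 cells of large clones. The part of these cells in the gene results was not tested.

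Most large clones had cells in several clusters, and 22 of 25 had cells in cycling-like cluster 10 or 12. The spread expected for clones of these sizes was not computed. A clone reached 2 to 8 clusters (median 6), its most used cluster held 27.8% to 90.0% of its cells (median 42.4%), and in 17 of 25 clones it held under 50%. In 18 of 25 clones there were cells in cluster 6 and in cluster 7, and these 18 had cells in a cycling-like cluster too. The clone of 143 cells had 36 cells in cluster 6, 46 in cluster 7, 27 in cluster 10, 26 in cluster 12, 4 in cluster 3 and 2 in cluster 13. The largest clone of replicate 4 had 10 cells in cluster 6, 6 in cluster 7, 16 in cluster 10, 28 in cluster 12 and 4 in cluster 13.

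Some clones were narrower. The 13-cell clone of replicate 1 had 11 cells in cluster 8, the 11-cell TRAV16N-TRAJ48 clone of replicate 2 had 8 there, and the 11-cell TRAV6-2-TRAJ23 clone of replicate 2 and the 10-cell clone of replicate 4 had 9 each in cluster 3. In all, cluster 3 or 8 was the most used in 6 large clones, and 5 clones had over 60% of their cells in their most used cluster. The share of cycling cells ran from 0% to 73.7% over the large clones, with 3 clones at 0%, and the median CD11a count from 239 to 508.

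**Figure D4:**
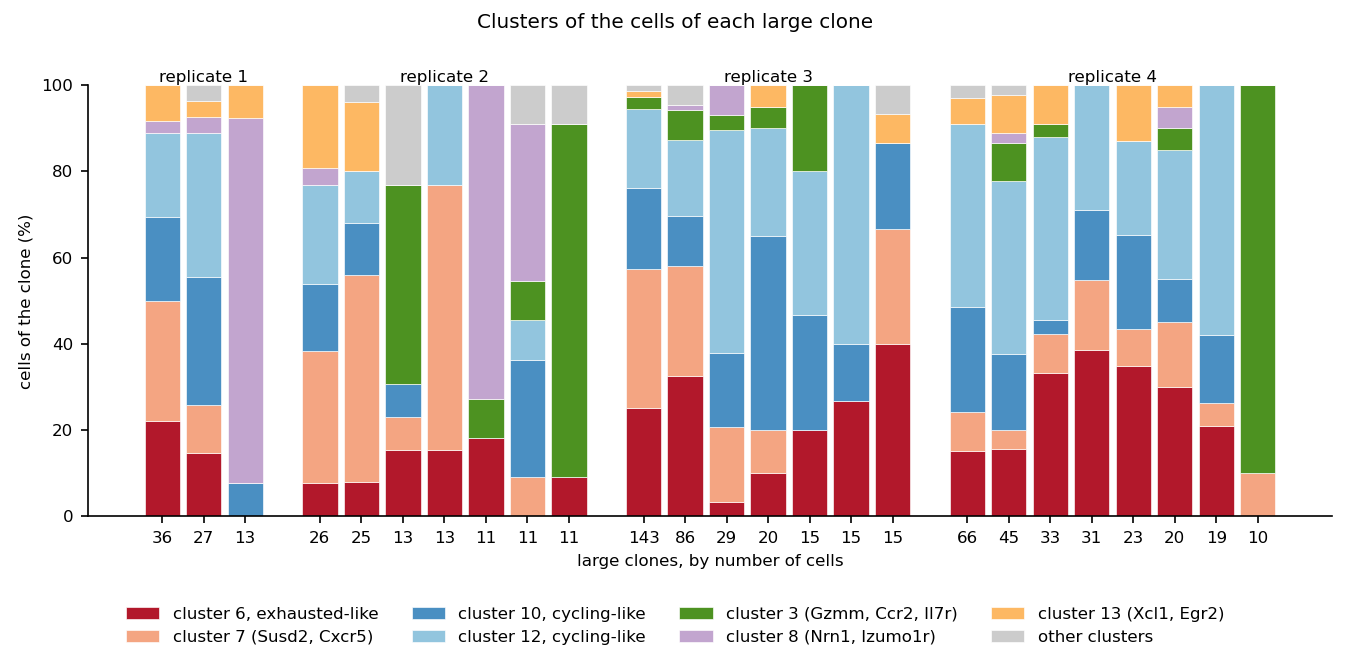
Share of the cells of each of the 25 large clones in each cluster (vertical axis, %), clones ordered by size within replicates and marked with their number of cells. Most bars are mixed, with exhausted-like, cluster 7 and cycling-like cells in the same clone, while 1 clone of replicate 1 and 1 of replicate 2 are mostly cluster 8 and 1 of replicate 2 and 1 of replicate 4 mostly cluster 3.

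Even so, cells of the same clone shared a cluster more often than cells of different large clones of the same library. The share of same-cluster pairs was taken for each clone and averaged with equal weight, so a small clone counted as much as the largest. Between clones, each pair of clones had equal weight. The mean share within clones was 36.7%, 34.6%, 26.5% and 32.4% in replicates 1 to 4, against 9.74%, 11.2%, 20.01% and 19.3% between clones. The difference was 17.5 ± 9.39 points (SD, n = 4), positive in 4 of 4 libraries, with p = 0.125 in the exact permutation test. The difference was smallest in replicate 3, at 6.48 points, where clones of 143, 86 and 15 cells share a TRB. With clones defined by TRB alone, it was 21.0, 23.8, 26.8 and 20.7 points in replicates 1 to 4, so that replicate 3 had the largest difference. With the first definition of clones and cycling cells left out, the share within clones was 45.2%, 44.2%, 41.8% and 45.4%. Between clones it was then 14.7%, 15.9%, 30.95% and 31.6%. Not every clone went with the mean. The share within a clone was above its own mean share with other clones in 3 of 3, 7 of 7, 5 of 7 and 4 of 8 clones. Over all cells these were 3 of 3, 7 of 7, 7 of 7 and 7 of 8.

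Gene levels of single clones showed the same spread. These rest on the summed UMIs of 1 clone, with exact Poisson 95% intervals that cover counting error only. Il7r reached 366 CPM (interval 209 to 594) in the 10-cell clone of replicate 4 and 279 CPM (187 to 401) in the 13-cell clone of replicate 1, against a median of 10.2 CPM over the 25 clones. Ccl5 ran from 530 CPM (399 to 690) in the 13-cell clone of replicate 1 to 30190 CPM in a 13-cell clone of replicate 2. It stood at 29710 CPM (28100 to 31390) in the TRAV6-2 clone of replicate 2. Izumo1r, which encodes a folate receptor family protein, reached 412 CPM (264 to 613) in the TRAV16N-TRAJ48 clone of replicate 2, against a median of 25 CPM.

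Related receptors went with like levels for some genes. Ikzf2 stood at 491 CPM (458 to 526) in the clone of 143 cells, 484 CPM (438 to 534) in the clone of 86 and 528 CPM (392 to 696) in the 15-cell clone with the same TRB, while the other 4 large clones of replicate 3 had 36.4 to 175 CPM. The near-identical receptor of replicate 4 came with 104 CPM (72.3 to 144), within the range of its own library. Xcl1 went apart within the TRB family, at 471 CPM (439 to 505) in the clone of 143 and 1996 CPM (1721 to 2301) in the clone of 15. For the receptor shared by both libraries, the 20-cell clones had 70.0% cycling cells in replicate 3 and 45.0% in replicate 4, and the 15-cell and 19-cell clones 60% and 73.7%.

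At the threshold of 10 cells, clones on both sides looked alike in part. The 4 clones of 10 or 11 cells had 0%, 36.4%, 0% and 0% cycling cells and 140 to 292 CPM of Tcf7. The 6 clones of 8 or 9 cells had 0% to 66.7% cycling cells and 129 to 508 CPM of Tcf7.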

How the data were processed

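The mRNA matrices deposited by the authors are unnormalized UMI counts for each gene in each barcode, with counts of 4 antibodies (among them CD4, CD11a and PE, which read biotinylated anti-CD8b), written by Cell Ranger 4.0.0 per the file headers. The contig tables of the TCR libraries hold UMI counts per assembled contig, as deposited (assembly software: not given in the sources used here). Processing notes of the submitters name the mm10 build and Seurat, without a version or a role. Antibody counts were read from the mRNA matrices.

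Members and gene lists were chosen with earlier results of these data known. CD8 cells, clonotypes and size classes were set by the rule in the text. Barcodes with more than 1 TRB chain, 188 of 3704 with a TRB, were left out as possible doublets, and no doublet caller was run. UMIs were summed per class and library, without V, D and J segment genes, and tested in edgeR 4.0.16 (filterByExpr, TMM, robust quasi-likelihood fit) with the replicate as block and Benjamini-Hochberg adjustment at 0.05. The classes come from the same library, which pairs them; residuals of paired sums correlated by 0.0642, 0.253, 0.0609 and 0.289 in replicates 1 to 4. Counts were simulated from the mean levels of these sums, with the trended dispersion and no replicate effect. Of these, 88 of 100 genes changed by 1 and 100 of 100 changed by 2 on the log2 scale were called, with 4 of 7980 unchanged genes. The changed genes were drawn from those averaging over 20 CPM, so recovery at lower levels or with library effects was not measured. DESeq2 1.42.0 was an alternative. Class levels of single genes are CPM scaled by TMM; marker sums and levels of single clones are plain CPM. Shares and antibody levels were compared with exact two-sided sign-flip permutation tests over 4 libraries. Clusters came from scanpy 1.11.5 (2000 variable genes, 20 components, 15 neighbours, Leiden resolution 1). The cycling threshold, the comparison of non-cycling cells and the limit of 10 cells per clone were chosen after the data were seen.

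The genes named were, in each direction, the 10 called genes with the largest fold change that moved the same way in every library and reached a mean of 20 CPM on the higher side, together with 10 genes set by name (Pdcd1, Havcr2, Tox, Tcf7, Slamf6, Xcl1, Gzma, Gzmk and Mki67, with 1, and the planned results that rest on it, not reported here) and up to 3 members of each list with the smallest p.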

Additional observations from a re-analysis of the deposited data

Results flagged for a closer look

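In groups of 4 values, a value was singled out when its gap to the nearest other value as a share of the group's range passed Dixon's 95% limit, which chance passes in about 1 of 20 groups. Of 141 groups looked at, 7 held such a value. Over the libraries, the difference of the cycling share between large and small clones was 15.06 points in replicate 2, against 25.9, 27.97 and 27.8 points in replicates 1, 3 and 4. In large clones, Mcm6 was lowest in replicate 2 at 338.1 CPM, Foxp1 was highest in replicate 2 at 83.1 CPM, Tox was lowest in replicate 4 at 366.3 CPM, and Tigit was highest in replicate 2 at 281.9 CPM (all CPM here are scaled by TMM). Igfbp4 was at 0.6483 CPM in replicate 4, from 2 UMIs, and at 0 in the other libraries. In small clones, Fasl was highest in replicate 4 at 52.65 CPM. No cause of these values was tested.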

How the results depend on the processing

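The counts here are totals of each fit, not genes shared between fits. Over all cells 1318 genes were called, against 546 in DESeq2, 858 in edgeR without the replicate block and 703 in edgeR with at most 10 cells of each clone. On cells thinned to 1000 UMIs 185 were called, without cells carrying markers of other cell types 389, and without cycling cells 254. Leaving out a replicate gave 432 (replicate 3) to 1339 (replicate 4). In non-cycling cells, the count was 254, against 135 without the block, 47 in DESeq2, and 115 (without replicate 3) to 231 (without replicate 1). The other alternatives to these counts stayed within 1.5 times. Among named genes over all cells, 1189 of 1337 values kept direction and side of the threshold, 108 lost a call, 31 gained one and 9 turned; in non-cycling cells these were 284, 31, 8 and 3 of 326. Most calls were lost without the block (30) and without replicate 3 (14).

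The turned values, as log2 fold changes, were of Id3 without cycling cells (0.032), of Gzma in small clones of exactly 2 cells (1.30) and on leaving out a replicate (−1.32 to 0.34), and of Gzmk on thinned cells (−0.0097). Ccl5 turned without the largest clone (−0.22), without its TRB (−0.51), with large clones of 15 or more (−0.16), with at most 10 cells of each clone (−0.17) and with clonotypes by TRB alone (−0.023). Within non-cycling cells Id3 turned without the block (−0.0010) and on leaving out a replicate (−0.21 to 0.46). The cause was not tested.

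The differences in CD11a, cycling and shared state kept their sign under every alternative run; the exact p is fixed by the number of libraries once their signs agree. The planned fits without cells of 2 or more proliferation UMIs and with at most 2 cells of each clone were not run, since under 20 cells of large clones a library were left. Small clones hold 57 to 101 cells a library, so genes of low level are beyond this depth.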
